A study of Mus musculus with 12 samples.

Results

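Glomeruli of heterozygous Alport syndrome (AS) females, Col4a5+/- on the B6.Cg-Col4a5 tm1Yseg/J background, were compared with glomeruli of C57BL/6J WT females. All mice are labelled 3.5 months old, and the labels name no treatment. The comparison rests on 5 of the 11 distinct libraries of the series, namely WT replicates 1 and 2 and AS replicates 1, 2 and 3. The other 6 libraries are from WT and Col4a5-/- males of the same labelled age. A table labelled as WT replicate 3 repeats WT replicate 1 in 26048 of 26048 gene values, within a tolerance of 1e-04, and it was counted once. The headers of the tables name 1 sequencing run for the WT libraries and another for the AS libraries, so run and genotype cannot be told apart in any result. How many mice went into each library, whether WT and AS females were littermates and the hour at which kidneys were taken are not given in the sources used here. The allele is carried by every cell of the mouse and not by a chosen cell type.

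The glomerulus is the filter of the kidney, made of podocytes and endothelial cells on a shared basement membrane and of mesangial cells between the capillaries. Col4a5 encodes the X-linked chain of the type IV collagen network of that membrane, which it forms with the Col4a3 and Col4a4 chains. Because 1 X chromosome is silenced in each cell of a female, heterozygous females are mosaics of cells that use the mutant copy and cells that use the intact copy. Most renal cells also run a circadian clock, in which Arntl pairs with Clock or Npas2 to switch on Per, Cry and Nr1d genes whose products then hold that pair in check. Immediate early genes such as Fos, Jun and Egr1 form another fast layer, and are transcribed within minutes of a stimulus to a cell.

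Each value is the read count of a gene after scaling with the trimmed mean of M-values (TMM), called its TMM value here. Column totals were 17777200 and 20152100 in WT and 16941000, 16972900 and 17153100 in AS, and the library profiles correlated across genes at 0.9845 within WT, 0.9894 to 0.9927 within AS and 0.9775 to 0.9861 between them. Of 26048 genes listed, 16286 had at least 0.5 CPM, a rate taken over the column total, in 2 or more libraries. The gene just inside this limit, Rpl19-ps7, had 0.5008 CPM in its second-highest library, and the gene just outside, Gm19840, had just under 0.5. Differences are given as log2 fold changes of AS over WT on the log2(value + 17.8) scale, which understates the change of weakly expressed genes, with the standard error (SE) and the adjusted p of limma.

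The targeted gene was looked at first as a check of the labels. Col4a5 (chrX:141475385-141689234 of GRCm38) read 2329 and 1752 in WT against 1187, 1210.4 and 1329.5 in AS. Every AS library lay below both WT libraries, and the log2 fold change was -0.69 (SE 0.14, adjusted p = 0.0683), short of the threshold of 0.05. Without WT replicate 2 it passed, at -0.90 (adjusted p = 0.0145). An exact permutation test over the 5 libraries gave p = 0.2, two-sided, which is the smallest value 2 against 3 libraries can give. Its partner chains Col4a3 and Col4a4 had log2 fold changes of 0.23 (adjusted p = 0.67) and 0.25 (adjusted p = 0.485). Podocyte genes, Podxl among them, were detected in all 5 libraries, with a summed TMM value of 371913 and 508956 in WT and 323597 to 386931 in AS for 19 markers, so the labelled tissue held its defining cells. Proximal tubule RNA was present too, at a summed TMM value of 193162 and 364908 in WT and 214350 to 282879 in AS for 25 markers.

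Across all genes, 226 of 16286 passed the test at an adjusted p under 0.05, which is 1.39%. Of these, 170 were higher in AS (1.04% of genes tested) and 56 were lower (0.344%). The background of looser measures was much wider. At an unadjusted p under 0.05 the share was 21.7%, and AS and WT values did not overlap for 40.4% of genes, 19.6% with AS higher and 20.8% with AS lower. Of the genes tested, 595 had passed the low value filter only through AS libraries and 30 only through WT libraries. Of the called genes, 19 had passed it only through AS libraries and 1 only through WT libraries. The median log2 fold change of all genes was -0.0039. With equal column totals in place of TMM scaling this median was 0.128, 620 genes were called higher and 49 lower, and the higher share of calls was 92.7% in place of 75.2%.

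The genes that changed most are a mixed set of clock genes, early response genes and genes of the distal nephron. Among the 12 largest rises were Npas2, Fosb, Egr2, the distal tubule genes Pvalb, Trpm6 and Slc12a3, the secreted Wnt modulator Sfrp1, the zinc finger factor Sall3 and the membrane adaptor Ank2. Sfrp1 read 1073 and 1775 in WT against 8796, 5255 and 4325 in AS, with a log2 fold change of 2.07 (SE 0.33, adjusted p = 0.0419). Sall3 read 64.4 and 81.4 in WT against 438, 359 and 259.7 in AS, with a log2 fold change of 2.00 (SE 0.22, adjusted p = 0.0251). The AS libraries of both genes were all above the WT libraries, with AS replicate 1 the highest. The remaining 3 of the 12 were the pseudogene Mif-ps and the loci Gm14760 (2.16, adjusted p = 0.0171) and Gm2115 (1.97, adjusted p = 0.0243).

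The 12 largest falls included the clock genes Dbp, Bhlhe41, Per2 and Tef, the adhesion molecule Vcam1, the water channel Aqp4 and the small nuclear RNA Rn7sk. They also included 2 neuronal surface proteins. Lingo2 had a log2 fold change of -1.70 (adjusted p = 0.0414) and Opcml one of -1.47 (adjusted p = 0.0291). The others were Nat8f6, of a family of N-acetyltransferases, at -1.93 (adjusted p = 0.0453), and the loci Gm47428 (-2.58, adjusted p = 0.0141) and Gm10681 (-2.06, adjusted p = 0.0171). Symbols that begin with Gm, pseudogenes and members of gene families such as Nat8f6 can share reads with near-identical copies, so their values are uncertain.

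Clock genes made up 14 of the 226 calls, out of 29 members tested in 3 lists of activators, repressors and output factors. Npas2 and Arntl, which activate the loop, rose. Of 14 repressors 7 were called lower and 1 rose, and of 8 output factors 4 fell and none rose. With a filter in 3 libraries, which Ciart did not pass, 13 repressors were tested, of which 6 fell and 1 rose. Over all genes the share called was 1.39%. The lists were drawn up with earlier results of these data known, so their counts are a description.

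Npas2, which can stand in for Clock as the partner of Arntl, read 34.2 and 27.1 in WT against 244, 235 and 226 in AS. All AS libraries lay far above the WT libraries, the means went from 30.7 ± 5.03 (SD, n = 2) to 235 ± 8.82 (SD, n = 3), and the log2 fold change was 2.39 (SE 0.15, adjusted p = 0.00299). Arntl, the core activator also called Bmal1, read 116 and 105 in WT against 471, 489 and 402 in AS. Its groups did not overlap either, and the log2 fold change was 1.88 (SE 0.14, adjusted p = 0.00659). Clock itself read 2478 and 1979 in WT against 2149, 2213 and 1987 in AS, with overlapping groups and a log2 fold change of -0.07 (adjusted p = 0.808). Rora and Rorb, nuclear receptors that activate Arntl, had log2 fold changes of -0.68 (adjusted p = 0.0585) and -0.72 (adjusted p = 0.0633), and Arntl2 did not pass the test either (0.16, adjusted p = 0.553).

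**Figure D1:**
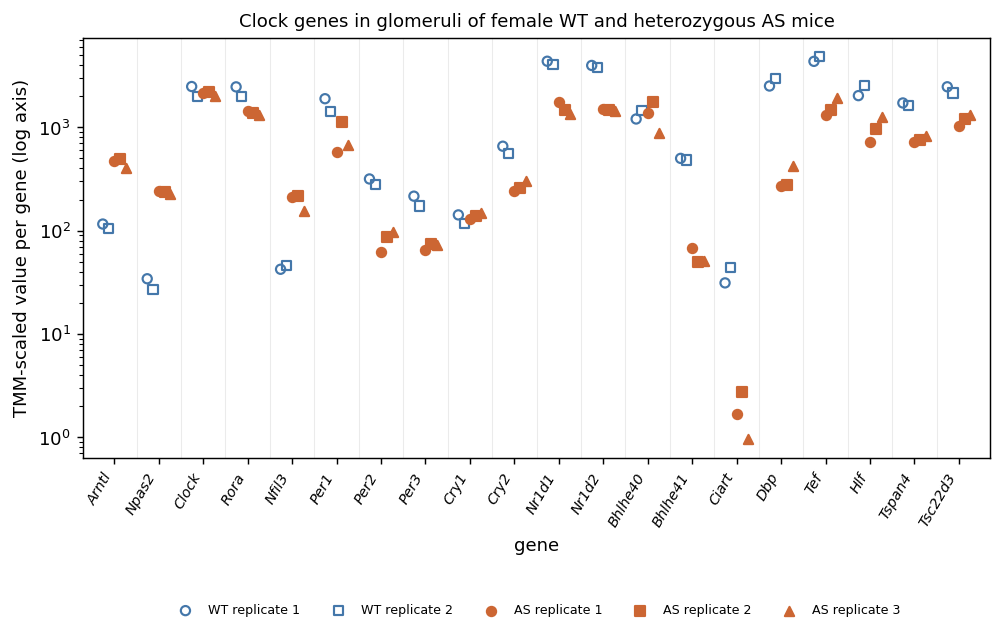
TMM values of 20 clock genes in each of the 5 libraries, on a log axis. Open blue symbols are WT replicates 1 and 2 and filled orange symbols are AS replicates 1 to 3. The AS symbols of Arntl, Npas2 and Nfil3 lie above the WT symbols, those of Clock, Cry1 and Bhlhe40 lie among them, and those of Rora, Per1, Per2, Per3, Cry2, Nr1d1, Nr1d2, Bhlhe41, Ciart, Dbp, Tef, Hlf, Tspan4 and Tsc22d3 lie below them.

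Among the repressors, Bhlhe41, which represses targets of the Arntl pair, read 499.9 and 483 in WT against 67.7, 49.8 and 50.3 in AS. Every AS library was far below both WT libraries, the means went from 492 ± 11.8 (SD, n = 2) to 55.9 ± 10.2 (SD, n = 3), and the log2 fold change was -2.80 (SE 0.16, adjusted p = 0.00299). Nr1d2, a REV-ERB receptor that represses Arntl, read 3962 and 3786 in WT against 1517, 1454 and 1431 in AS, with a log2 fold change of -1.39 (SE 0.10, adjusted p = 0.00659). Its relative Nr1d1 read 4352 and 4039.5 in WT against 1768, 1456 and 1346 in AS, with a log2 fold change of -1.46 (SE 0.14, adjusted p = 0.0171). For both receptors the 3 AS libraries were well below the WT libraries.

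The Period and Cryptochrome genes encode the repressors that close the loop. Per2 read 316 and 280.2 in WT against 61.7, 87.2 and 96.6 in AS, with a log2 fold change of -1.68 (SE 0.19, adjusted p = 0.0251). Per3 read 215 and 173 in WT against 64.2, 73.5 and 73.4 in AS, with -1.26 (SE 0.16, adjusted p = 0.0291). Cry2 read 655 and 555 in WT against 241, 259 and 304 in AS, with -1.13 (SE 0.15, adjusted p = 0.0297), so that the AS libraries of all 3 genes were below every WT library. Per1 read 1889 and 1433 in WT against 578, 1125 and 673 in AS. Its AS libraries were also below the WT libraries but spread widely, with replicate 2 the highest, and its log2 fold change of -1.10 (adjusted p = 0.0932) did not pass. Cry1 and Bhlhe40 had log2 fold changes of 0.09 (adjusted p = 0.765) and -0.04 (adjusted p = 0.952), with overlapping groups.

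Ciart, a repressor of the Arntl and Clock pair, read 31.2 and 44.1 in WT against 1.67, 2.72 and 0.966 in AS, all AS values being below the WT values. It was called lower but had entered the test only through the WT libraries, so no test result is given for it, and it passed in none of the 3 fits with 1 library left out that tested it. Nfil3, which competes with Dbp for its sites, was the 1 repressor that rose. It read 42.3 and 46.3 in WT against 213, 217 and 154 in AS, with a log2 fold change of 1.76 (SE 0.18, adjusted p = 0.0219). The kinase genes Csnk1d and Csnk1e, which set the pace at which the repressors are lost, had log2 fold changes of 0.09 (adjusted p = 0.676) and 0.09 (adjusted p = 0.839).

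The output factors carry the rhythm to other genes. Dbp, a PAR bZIP activator and a direct target of the Arntl pair, read 2506 and 2947 in WT against 268, 275 and 422 in AS. Its means went from 2727 ± 312 (SD, n = 2) to 321 ± 87.1 (SD, n = 3), with no overlap, and the log2 fold change of -3.04 (SE 0.21, adjusted p = 0.00481) was the largest fall among the genes ranked. Tef, of the same family, read 4340.0 and 4812 in WT against 1305, 1462 and 1898 in AS, with a log2 fold change of -1.56 (SE 0.17, adjusted p = 0.0244). Hlf, the remaining member of the family, read 2023 and 2513 in WT against 724, 969 and 1244 in AS and missed the threshold at -1.22 (adjusted p = 0.0552). In all 3 genes AS replicate 3 was the highest of the AS libraries, yet below both WT libraries.

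Tspan4, a tetraspanin, read 1718 and 1629.6 in WT against 719, 756 and 817 in AS, with a log2 fold change of -1.12 (SE 0.11, adjusted p = 0.0171). Tsc22d3, the glucocorticoid-induced leucine zipper GILZ, read 2463 and 2149 in WT against 1027, 1195 and 1313 in AS, with -0.96 (SE 0.14, adjusted p = 0.036). The groups of both genes did not overlap, as for all 226 genes called. Klf9, Wee1 and Usp2 had log2 fold changes of -0.49 (adjusted p = 0.0885), -0.41 (adjusted p = 0.222) and -0.35 (adjusted p = 0.313). Tsc22d3 was also the only 1 of 16 members of a glucocorticoid response list that passed, against 1.39% of all genes. The median log2 fold change of that list was -0.06. The clock lists had 10 calls in place of 14 when WT replicate 1 was left out and 16 when WT replicate 2 was, and with AS replicates 1, 2 or 3 left out they had 6, 3 and 10.

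Clock proteins bind short DNA words near gene starts. The promoters of 23 of the 29 clock members matched RefSeq windows on GRCm38.p6, from 250 bases before to 50 after the start, which were searched on both strands. The E-box CACGTG is the site of the Arntl pair. The D-box, spelled TTACATAA, TTACGTAA, TTATATAA or TTATGTAA, is the site of Dbp, Tef, Hlf and Nfil3. The RORE is the site of the ROR and REV-ERB receptors. An E-box was in the window of 4 of 10 repressors matched, 2 of 7 output factors and 0 of 6 activators, against 8.09% of 27025 gene symbols. The 6 clock genes with one were Per1, Cry1, Bhlhe41, Ciart, Tef and Tspan4, of which Per1 and Cry1 did not pass the test of their levels. An E-box was also in the window of 26.3% of the early transcription factors matched and 27.3% of the early feedback genes matched. A D-box was in the window of 1 repressor, Per3, against 1.86% of symbols, and a RORE in that of 1 activator, Arntl, against 0.459%. A match is a description of the letters and not a bound site.

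The windows of 4 of these genes are shown because their words belong to the loop whose members moved. Each is printed 5′ to 3′ on the strand of the gene with its words in capitals. In Ciart (chr3:95882252-95882478, minus strand) there are 3 E-boxes, starting between 116 and 44 bases before the start. In Bhlhe41 (chr6:145865421-145865670, minus strand) there is 1 E-box, 153 bases before the start. In Per3 (chr4:151044666-151044915, minus strand) there are 2 D-boxes, 205 and 158 bases before the start. In Arntl (chr7:113207528-113207556, plus strand) a stretch of 29 bases holds a RORE 26 bases after the start.
Ciart: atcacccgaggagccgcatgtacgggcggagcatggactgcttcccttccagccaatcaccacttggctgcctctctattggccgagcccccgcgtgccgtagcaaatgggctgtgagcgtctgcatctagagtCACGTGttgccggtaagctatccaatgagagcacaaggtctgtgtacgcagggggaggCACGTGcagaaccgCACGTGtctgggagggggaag
Bhlhe41: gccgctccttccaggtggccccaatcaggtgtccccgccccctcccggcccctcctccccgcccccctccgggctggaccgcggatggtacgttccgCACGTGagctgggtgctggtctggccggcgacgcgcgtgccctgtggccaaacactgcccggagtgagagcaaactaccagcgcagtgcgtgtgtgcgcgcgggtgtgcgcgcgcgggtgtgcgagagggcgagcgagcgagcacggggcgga
Per3: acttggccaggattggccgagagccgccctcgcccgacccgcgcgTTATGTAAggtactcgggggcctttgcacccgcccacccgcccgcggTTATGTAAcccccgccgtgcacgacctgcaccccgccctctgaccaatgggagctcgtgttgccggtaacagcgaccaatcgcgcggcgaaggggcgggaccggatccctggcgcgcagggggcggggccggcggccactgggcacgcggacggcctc
Arntl: ggaaggcagAAAGTAGGTCAgggacggag

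Immediate early genes and their feedback genes were another large group among the calls, and all of their called members rose. Of 50 members tested in 2 lists, 13 rose and none fell, against 1.04% of all genes called higher. The AP-1 subunits Fos, Fosb, Jun and Junb and the zinc finger factor Egr2 rose among 23 transcription factors, and 8 of 27 feedback genes rose. AS values lay above WT values without overlap for 14 of the 23 factors and 19 of the 27 feedback genes, against 19.6% of all genes, and lay below without overlap for 1, Ccn2.

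Fos, an AP-1 subunit, read 5128 and 5559 in WT against 24873, 21647 and 14854 in AS, with a log2 fold change of 1.90 (SE 0.24, adjusted p = 0.0287). Fosb, its relative, read 1142 and 1284 in WT against 8169.8, 8432 and 4423 in AS, with 2.46 (SE 0.28, adjusted p = 0.0251). Jun, the partner of both, read 6542 and 5727 in WT against 20190.5, 19542 and 13151 in AS, with 1.497 (SE 0.22, adjusted p = 0.0391). In each gene the AS libraries were all above the WT libraries, and AS replicate 3 was the lowest of them. Junb had a log2 fold change of 1.55 (adjusted p = 0.0461), while Jund, whose transcription is less inducible, had 0.45 (adjusted p = 0.148).

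Egr2, a growth factor-induced zinc finger activator, read 21.1 and 17.0 in WT against 140.1, 229 and 114 in AS, with a log2 fold change of 2.23 (SE 0.27, adjusted p = 0.027). Egr1 read 2806 and 4058 in WT against 16085, 15341 and 7523 in AS. Its AS libraries were all above WT, but replicate 3 was far below the other two, and the log2 fold change of 1.86 (SE 0.35, adjusted p = 0.0587) did not pass. The stress-induced factor Atf3 read 266 and 183 in WT against 1912, 1571 and 537 in AS with the same order of AS libraries and 2.32 (SE 0.50, adjusted p = 0.0719), which did not pass. The orphan receptor Nr4a1 had 1.61 (adjusted p = 0.0954).

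**Figure D2:**
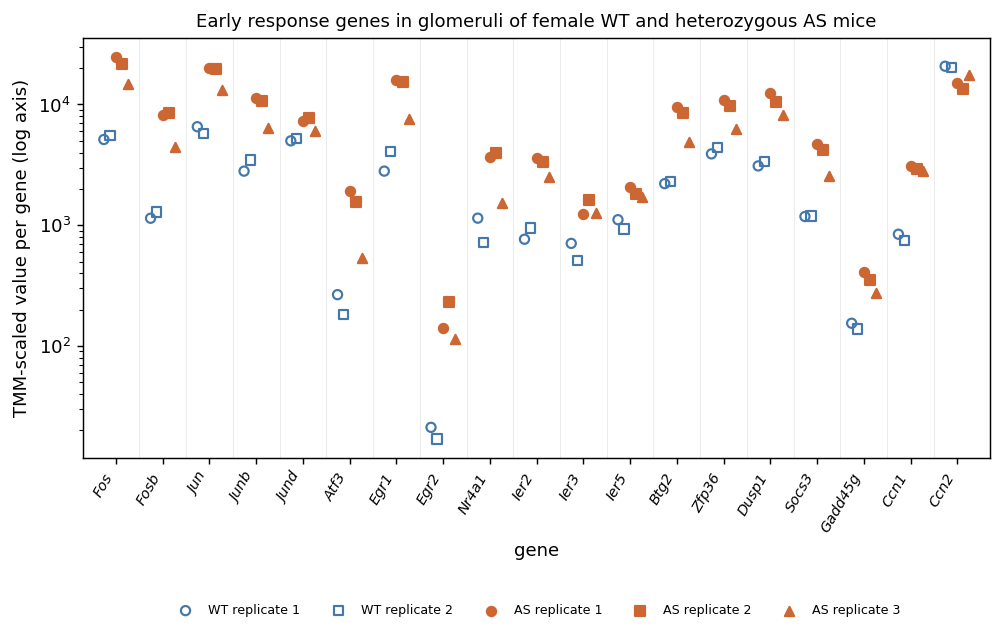
TMM values of 19 early response genes in each of the 5 libraries, on a log axis. Open blue symbols are WT replicates 1 and 2, and filled orange symbols are AS replicates 1 to 3. All AS symbols lie above the WT symbols for every gene but Ccn2, and the triangle of AS replicate 3 is the lowest AS symbol for most of them.

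Several of the feedback genes encode proteins that limit the early response, while others on the list, such as Ccn1, are early response products with other roles. Dusp1, a phosphatase of MAP kinases, read 3098 and 3395 in WT against 12446, 10523 and 8208 in AS, with a log2 fold change of 1.65 (SE 0.19, adjusted p = 0.0251). Btg2, an antiproliferative gene that p53 can also induce, read 2209.8 and 2297 in WT against 9539, 8422 and 4859 in AS, with 1.69 (SE 0.28, adjusted p = 0.0439). Socs3, a brake on JAK and STAT signalling, read 1179.9 and 1193 in WT against 4749, 4162 and 2554 in AS, with 1.62 (SE 0.25, adjusted p = 0.04). All 3 genes were above WT in every AS library, with AS replicate 3 lowest. Ier2, Ier3, Ier5 and Gadd45g also rose, with log2 fold changes of 1.85 (adjusted p = 0.0171), 1.16 (adjusted p = 0.0414), 0.86 (adjusted p = 0.0402) and 1.13 (adjusted p = 0.0429). Zfp36, which destabilizes early response mRNAs, did not pass at 1.08 (adjusted p = 0.0762).

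Ccn1, a secreted matricellular protein, read 842 and 746 in WT against 3097, 2907 and 2822 in AS. Its AS libraries were close to each other and all above WT, with a log2 fold change of 1.87 (SE 0.11, adjusted p = 0.00299), and it passed in all 5 fits with 1 library left out. Ccn2, its relative and also called connective tissue growth factor, read 20751 and 20100.4 in WT against 15079, 13314 and 17712 in AS, lower in every AS library but with a log2 fold change of -0.42 (adjusted p = 0.252) that did not pass. Outside the lists, Ppp1r15a, Socs1 and Cebpd, which are also stress- or cytokine-induced, rose with log2 fold changes of 1.74 (adjusted p = 0.04), 1.90 (adjusted p = 0.0419) and 1.43 (adjusted p = 0.0427). They were picked after their values were seen.

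The number of early response members called depended on the libraries. Of the 50 tested, 10 passed when WT replicate 1 was left out and 17 when WT replicate 2 was. With AS replicates 1, 2 or 3 left out there were 1, 1 and 13. Heat shock genes split the AS libraries in another way. Hspa1a read 6475 and 5948 in WT against 1593, 1799.9 and 7951 in AS and Hspa1b read 5787 and 4155 in WT against 910.0, 1213 and 6327 in AS, so AS replicate 3 was above both WT libraries while AS replicates 1 and 2 were far below. These 2 genes are near-identical copies and share reads. None of 17 heat shock chaperones passed in limma, 5 were lower at an unadjusted p under 0.05, against 21.7% of all genes in either direction, and the median log2 fold change was -0.29. Without AS replicate 3 there were 2 lower calls and without WT replicate 1 there was 1.

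The cyclic AMP response element, TGACGTCA, is the site of CREB and ATF factors. It was in the window of 7 of 90 genes called higher that matched a promoter (7.78%), 0 of 38 called lower and 2.03% of all symbols. It was in the window of 4 of 22 feedback genes matched, namely Btg2, Dusp1, Plk2 and Errfi1, of which the first 2 rose. The E-box, searched in the same windows, was in 15.6% of genes called higher, 15.8% of those called lower and 8.09% of all symbols. The windows of Btg2 (chr1:134079156-134079405, minus strand) and Dusp1 (chr17:26508473-26508722, minus strand) are shown because they hold the element in genes that rose, at 166 and 143 bases before the start, in capitals. The window of Dusp1 also holds an E-box, left in lower case, that does not overlap with the element.
Btg2: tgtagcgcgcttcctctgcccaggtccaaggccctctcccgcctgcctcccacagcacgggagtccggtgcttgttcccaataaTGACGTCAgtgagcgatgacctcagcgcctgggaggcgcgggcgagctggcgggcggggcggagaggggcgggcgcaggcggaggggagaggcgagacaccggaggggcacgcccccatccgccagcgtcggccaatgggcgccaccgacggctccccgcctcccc
Dusp1: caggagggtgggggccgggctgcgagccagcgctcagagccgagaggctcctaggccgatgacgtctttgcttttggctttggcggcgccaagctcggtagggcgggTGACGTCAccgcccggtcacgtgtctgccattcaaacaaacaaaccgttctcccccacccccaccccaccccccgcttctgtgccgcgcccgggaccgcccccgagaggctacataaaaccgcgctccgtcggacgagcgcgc

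Genes of the thick ascending limb and distal convoluted tubule rose within a nephron list whose median was near 0. Of 22 markers of the loop, distal tubule and collecting duct, 5 rose and 1 fell, against 1.04% and 0.344% of all genes, and the median log2 fold change was 0.04. The 5 were Pvalb, Trpm6, Slc12a3, Umod and Kcnj1, and the 1 that fell was the collecting duct water channel Aqp4. AS values lay above WT without overlap for 7 of the 22 and below for 3, against 19.6% and 20.8% of all genes.

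Pvalb, a calcium-binding protein of the early distal convoluted tubule, read 76.5 and 108 in WT against 667, 604 and 477 in AS, with a log2 fold change of 2.45 (SE 0.19, adjusted p = 0.00889). Trpm6, the magnesium channel of that segment, read 150 and 211 in WT against 1238, 793 and 606 in AS, with 2.13 (SE 0.29, adjusted p = 0.0317). Slc12a3, its thiazide-sensitive sodium chloride cotransporter, read 4246 and 6501 in WT against 27656, 20871 and 16873 in AS, with 2.02 (SE 0.27, adjusted p = 0.0317). In all 3 genes every AS library was above both WT libraries, and AS replicate 1 was the highest.

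Umod, the uromodulin of the thick ascending limb, read 4936 and 8005 in WT against 16229, 23996 and 18247 in AS, with a log2 fold change of 1.61 (SE 0.26, adjusted p = 0.0439). Kcnj1, the potassium channel ROMK, read 2178 and 3329 in WT against 7560.3, 6568 and 5484 in AS, with 1.26 (SE 0.22, adjusted p = 0.0482). Slc12a1, the furosemide-sensitive cotransporter of the same limb as Umod, read 1139 and 2135 in WT against 1114, 2663 and 2782 in AS. Its groups overlapped, with a log2 fold change of 0.37 (adjusted p = 0.656). Calb1, a calcium buffer of the distal nephron, read 4988 and 8266 in WT against 31417, 16116 and 15918 in AS, without overlap but short of the threshold at 1.64 (adjusted p = 0.0743).

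**Figure D3:**
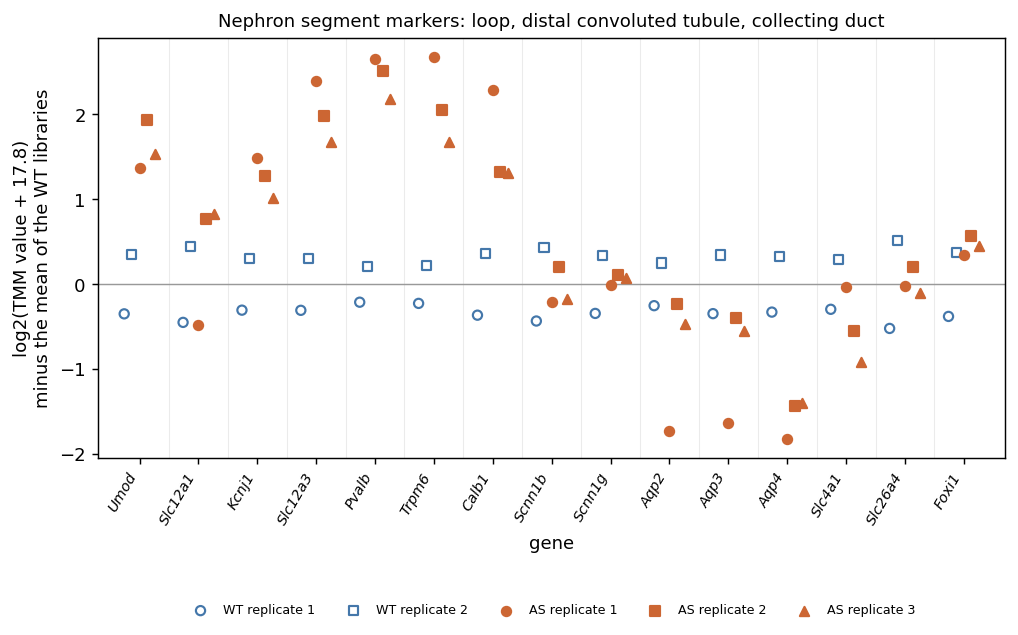
TMM values of 15 nephron segment markers in each of the 5 libraries, as log2(value + 17.8) minus the mean of the WT libraries. Open blue symbols are WT replicates 1 and 2, filled orange symbols are AS replicates 1 to 3, and the grey line marks the WT mean. The AS symbols of Umod, Kcnj1, Slc12a3, Pvalb, Trpm6 and Calb1 lie above the WT symbols, those of Aqp3 and Aqp4 lie below, and those of the other genes overlap with them.

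On the collecting duct side, Aqp4, the basolateral water channel of principal cells, read 180.2 and 294 in WT against 52.6, 74.5 and 76.3 in AS, with every AS library lower and a log2 fold change of -1.55 (SE 0.24, adjusted p = 0.04). Aqp2, the vasopressin-regulated channel of the same cells, read 1467 and 2086 in WT against 516, 1490.0 and 1258 in AS, with overlap and -0.81 (adjusted p = 0.309). The sodium channel subunits Scnn1b and Scnn1g, of the same nephron stretch, had -0.06 (adjusted p = 0.916) and 0.06 (adjusted p = 0.895). The intercalated cell genes Slc4a1, Slc26a4 and Foxi1 had -0.50 (adjusted p = 0.338), 0.03 (adjusted p = 0.967) and 0.46 (adjusted p = 0.278).

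Among other genes called, Klhl3, a ubiquitin ligase adaptor that controls Slc12a3 activity through WNK kinases, rose with 1.28 (adjusted p = 0.0458), and the transcription factor Prox1 rose with 1.60 (adjusted p = 0.0251). Defb1, an epithelial antimicrobial peptide of the distal nephron, read 1421 and 2302 in WT against 8347, 5177 and 5289 in AS, with 1.75 (adjusted p = 0.0414). They were picked after their values were seen. Fewer cells of a type and less RNA per cell cannot be told apart in bulk glomeruli, for these and all other marker genes. The 22 loop, distal and collecting duct markers together summed to a TMM value of 26950.5 and 44235.9 in WT and 94411.8, 83384 and 70072.3 in AS. How much of these differences came with tubule carried over in the glomerular preparations was not tested. The 25 proximal tubule markers had a median log2 fold change of -0.09 and 1 call, the lower Cyp4b1 (-0.71, adjusted p = 0.0453). Over all genes 0.344% were called lower. The median of these markers was -0.54 without WT replicate 1 and 0.26 without WT replicate 2. Without WT replicate 1 the distal calls were 2 higher and 1 lower, with a median of -0.39. Without WT replicate 2 they were 9 higher and 1 lower, with a median of 0.49. Without AS replicates 1, 2 and 3 there were 1, 0 and 2 higher and none lower.

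Genes of the unfolded protein response, which matches the folding capacity of the endoplasmic reticulum to its load, lay mostly below the WT libraries. Of 22 members 4 fell and none rose, against 0.344% of all genes called lower, and AS values lay below WT without overlap for 16, against 20.8%. The median log2 fold change was -0.33. Herpud1, which serves degradation of misfolded proteins, read 2974 and 3801 in WT against 1621, 1831 and 1787 in AS, with -0.94 (SE 0.14, adjusted p = 0.0389). Manf, a secreted protein of the stressed endoplasmic reticulum, read 1442 and 1399 in WT against 701, 738 and 802 in AS, with -0.91 (SE 0.11, adjusted p = 0.026). Xbp1, the transcription factor spliced by IRE1, read 3179 and 3445 in WT against 1966, 2032 and 2067 in AS, with -0.71 (SE 0.11, adjusted p = 0.0391). In these genes the 3 AS libraries were close together and below both WT libraries.

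Dnajb9, a cochaperone of BiP, was the remaining gene of the 4, with -0.67 (SE 0.12, adjusted p = 0.0494). Hspa5, which encodes BiP itself, read 16800.2 and 12835 in WT against 11974, 10978 and 10920.0 in AS, lower in every AS library but with -0.38 (adjusted p = 0.263). Atf4, the translation-controlled factor of the integrated stress response, read 1700.3 and 1102 in WT against 2658, 2511 and 2398 in AS, higher in every AS library and short of the threshold at 0.87 (adjusted p = 0.0694). Kdelr2, a receptor that returns chaperones to the endoplasmic reticulum, fell with -0.63 (adjusted p = 0.0429) and was picked after its value was seen. Without WT replicate 1 the list had 3 lower and 1 higher calls, without WT replicate 2 it had 8 lower and 1 higher, and without any 1 AS library it had none. With quantile normalization 1 member fell, and with equal column totals 2 fell and 1 rose.

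**Figure D4:**
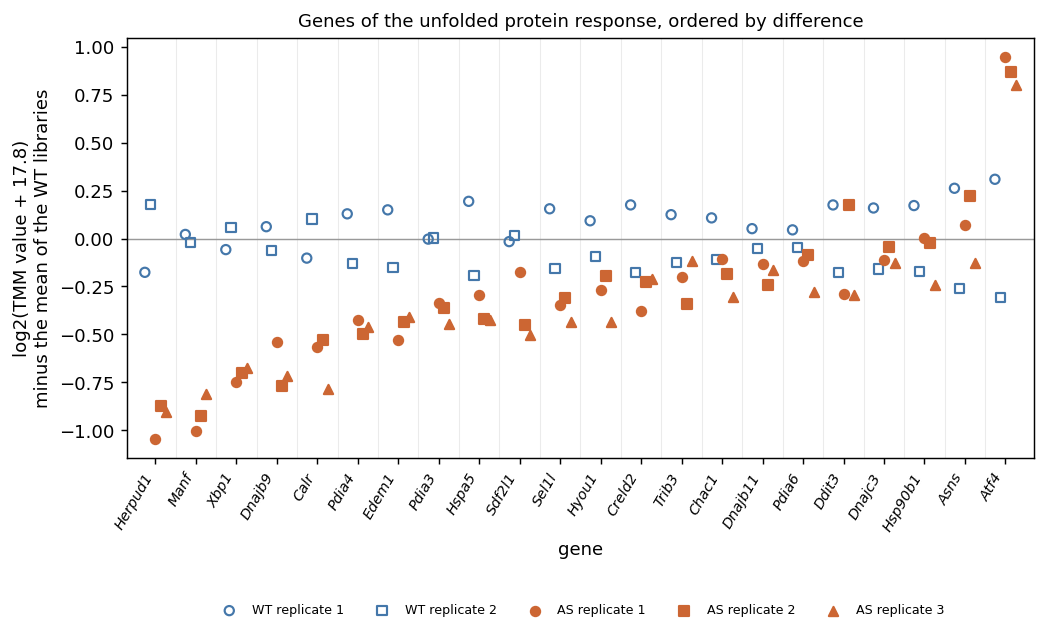
TMM values of the 22 unfolded protein response genes tested in each of the 5 libraries, as log2(value + 17.8) minus the mean of the WT libraries, ordered by log2 fold change. Open blue symbols are WT replicates 1 and 2, filled orange symbols are AS replicates 1 to 3, and the grey line marks the WT mean. The AS symbols lie below both WT symbols for 16 genes and above them for Atf4 alone.

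Markers of the cell types of the glomerulus itself gave no call with all 5 libraries. None of 19 podocyte, 20 glomerular endothelial and 13 mesangial markers passed in limma, and at an unadjusted p under 0.05 there were 2, 6 and 6 that were lower and none that was higher, against 21.7% of all genes in either direction. The median log2 fold changes were -0.24, -0.30 and -0.43. Without WT replicate 1 there was again no call and the medians were -0.03, -0.03 and -0.23. Without WT replicate 2 there were 2, 10 and 3 lower calls and the medians were -0.49, -0.54 and -0.57. With the mean proximal tubule level as a covariate there were 3, 8 and 4 lower calls. The podocyte gene Podxl, which encodes a surface sialomucin, had -0.34 (adjusted p = 0.685). The endothelial genes Kdr, the main VEGF receptor, and Ehd3, a membrane trafficking protein of glomerular endothelium, had -0.42 (adjusted p = 0.423) and -0.52 (adjusted p = 0.216). The mesangial genes Igfbp5 and Itga8 had -0.60 (adjusted p = 0.432) and -0.54 (adjusted p = 0.172).

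Of 12 genes of endothelial adhesion and activation 2 fell, against 0.344% of all genes. Vcam1, which binds leukocytes and is also made by injured tubule, read 1052 and 1233 in WT against 199, 162 and 407 in AS. All AS libraries were below WT, AS replicate 3 was the highest of them, and the log2 fold change was -2.18 (SE 0.34, adjusted p = 0.0408). Vwf, the clotting factor stored by endothelial cells, read 119 and 115 in WT against 53.4, 50.8 and 44.4 in AS, with -1.004 (SE 0.15, adjusted p = 0.0389). Without WT replicates 1 and 2 the list had 0 and 4 lower calls, with 1 higher call in the first case, and without AS replicates 1, 2 and 3 it had 0, 0 and 1 lower calls.

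None of 20 basement membrane genes passed in limma, with 1 higher and 2 lower at an unadjusted p under 0.05. Their median log2 fold change was -0.05, but 0.09 with quantile normalization and 0.10 with equal column totals. Of 20 matrix and fibrosis genes 2 were called higher, both of them low, against 1.04% of all genes. The count includes Col1a1, which the filter let in through AS alone, so it is a description. Col1a1, a chain of fibrillar type I collagen, read 4.03 and 2.26 in WT against 20, 23.6 and 27.0 in AS, and it had entered the test only through the AS libraries, so no test result is given for it. Col3a1, of type III collagen, read 9.06 and 12.4 in WT against 41.7, 40.9 and 64.7 in AS, with 1.21 (SE 0.20, adjusted p = 0.0446). Neither was called with quantile normalization, with a pseudocount of 4 CPM, with a filter of 2 CPM, or without WT replicate 1 or any 1 AS library. The crosslinking enzyme gene Loxl1, picked after its value was seen, rose with 1.39 (adjusted p = 0.0391). All AS libraries of both collagens were above WT, and in both genes AS replicate 3 was highest. Igf2, a growth factor of the 11-member IGF list, read 141 and 197 in WT against 34.2, 60.8 and 56.0 in AS and fell with -1.46 (SE 0.23, adjusted p = 0.0429). No other member of that list was called, and 1.39% of all genes were.

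Genes of the pancreatic islet were above 0 in the AS libraries alone among the 5. Ins2, which encodes insulin, was listed at 0 in both WT libraries and at 37.5, 49.9 and 68.6 in AS. Ins1, the other mouse insulin gene, was listed at 0 in WT and at 30.9, 30.0 and 30.9 in AS. Gcg, the glucagon gene, was at 0 in WT and at 24.2, 27.2 and 29.9 in AS, and Iapp, the amylin gene, at 0 and 17.5, 20.9 and 21.2. These 4 had entered the test only through the AS libraries, so neither a fold nor a test result is given for them. The neuroendocrine granule gene Chga, which is on no list, was at 0 in WT and at 17.5, 29.1 and 24.1 in AS. In males the order was the same, Ins2 being at 0 in all 3 WT libraries and at 37.2, 37.3 and 61.8 in AS, and Ins1 and Gcg were also at 0 in male WT and above 0 in male AS. Of the 15 pancreas genes listed 5 passed the low value filter, the fifth being Cela1 (0.23, adjusted p = 0.687). The acinar genes Cpb1 and Ctrb1 were at most 1.82 in any library. The source of the islet RNA was not tested, and it moved with run and genotype alike.

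Many of the genes called higher were pseudogenes. Of 1439 pseudogenes tested, 53 were higher (3.68%) and 2 lower, with a median log2 fold change of 0.33, whereas 109 of 13830 protein-coding genes were higher and 50 lower, with a median of -0.03. AS values lay above WT without overlap for 52.9% of pseudogenes, against 19.6% of all genes. Across all genes tested, 595 had passed the low value filter only through AS libraries, against 30 only through WT libraries. Genes let in this way tend to read higher in AS by selection, and their part in the pseudogene counts was not tested. Mif-ps, a processed copy of the cytokine gene Mif, read at most 0.000492 in WT and 105, 98.6 and 100.1 in AS. Its reads may be shared with its parent gene. Among 109 named ribosomal protein pseudogenes 7 were higher (6.42%, against 1.04% of all genes) and the median was 0.52. Among 92 ribosomal protein genes 11 were higher (12%) and none lower, against 1.04% and 0.344% of all genes. Rpl41 had 0.91 (adjusted p = 0.0347) and Rps21 had 1.26 (adjusted p = 0.026). Pseudogenes and ribosomal protein genes share long stretches of sequence, so these counts are uncertain.

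Among noncoding RNAs, the snoRNA host genes Gas5 and Snhg1 rose. Gas5 had 1.02 (adjusted p = 0.0291), and Snhg1 read 56.4 and 38.4 in WT against 236, 217 and 201 in AS, with 1.87 (SE 0.17, adjusted p = 0.0171). Rn7sk, the RNA that holds the elongation factor P-TEFb inactive, read 220.5 and 229 in WT against 43.4, 68.1 and 88.9 in AS and fell with -1.56 (SE 0.24, adjusted p = 0.04). It is short and has no polyA tail, and the libraries were made from polyA RNA. The splicing factor gene Sfpq, also a binding partner of the Per complex, fell with -0.75 (adjusted p = 0.0389). It was the only 1 called of 14 splicing regulators on a list, against 0.344% of all genes called lower. Of 546 X chromosome genes tested 7 were higher (1.28%, against 1.04% of all genes) and 1 lower (0.183%, against 0.344%), with a median of -0.06.

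In limma there was no call in 17 further lists with 199 genes tested, of which 22 were higher and 16 lower at an unadjusted p under 0.05, against 21.7% of all genes in either direction. The lack of calls did not hold under every setting. With the mean proximal tubule level as a covariate several of these lists had calls and others had none. Among the former were the VEGF and angiopoietin axis (6 lower, 1 higher) and macrophages (4 lower). The median of the VEGF and angiopoietin axis was -0.03 without WT replicate 1 and -0.40 without WT replicate 2. For mitochondrially encoded genes these medians were -0.62 and 0.33. The 17 lists covered the VEGF and angiopoietin axis, smooth muscle, parietal epithelium, macrophages, lymphocytes, neutrophils, red cells and fat. They also covered chemokines, interferon-stimulated genes, cholesterol synthesis, fatty acid oxidation, mitochondrially encoded genes, the cell cycle, genes that escape X inactivation, antioxidant genes and metallothioneins. Ren1, the renin gene of the juxtaglomerular cells on the smooth muscle list, read 385 and 308 in WT against 2473, 884 and 988 in AS. It was higher in every AS library, with replicate 1 far above the other AS libraries, and missed the threshold at 1.86 (adjusted p = 0.0759).

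Leaving out single libraries moved the number of calls strongly. It was 180 when WT replicate 1 was left out and 1831 when WT replicate 2 was. With AS replicates 1, 2 or 3 left out it was 12, 5 and 48. All 226 called genes kept their direction in each of these fits that tested them. Of these, 5 passed in all 5 fits, namely Npas2, Ccn1, Bhlhe41, Dbp and Mif-ps. A further 7 passed in 4 fits, namely Arntl, Nr1d1, Nr1d2, Pvalb, Ins2, Gm10681 and Gm47428. Mif-ps and Ins2 had entered the test only through the AS libraries, so their calls are no sign of stability.

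**Figure D5:**
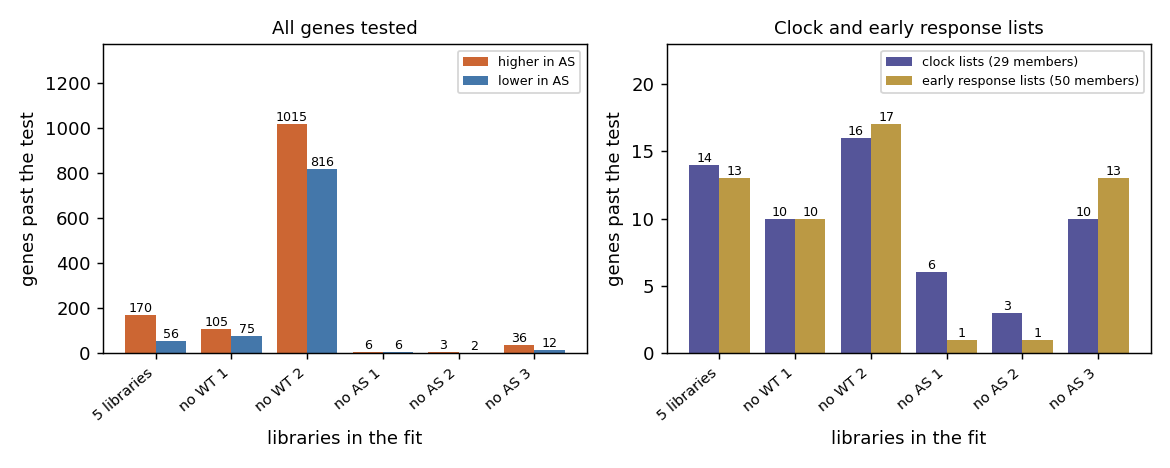
Number of genes past the test, with all 5 libraries and with each library left out. The left panel shows genes higher (orange) and lower (blue) in AS, from 170 and 56 with 5 libraries to 3 and 2 without AS replicate 2. The right panel shows the members called of the 29 clock genes (purple) and of the 50 early response genes (yellow). Bars start at 0 and carry their counts.

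The AS effect in females was set against that in Col4a5-/- males by the difference of the log2 fold changes in 1 fit of 11 libraries. It passed for 3605 of 15655 genes (23%), of which 1989 were higher in females. Without WT replicate 1 of the females it passed for 2. The sexes differ in genotype as well, since females kept an intact Col4a5 copy, and their tables may have been scaled apart. The difference, females minus males on the log2 scale, was 3.30 for Fos, 2.61 for Slc12a3 and 1.93 for Npas2. It was -2.45 for Per1 and -1.88 for Bhlhe41.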

How the data were processed

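RNA of isolated glomeruli was sequenced by the authors as stranded polyA libraries. Per the labels, the authors used FastQC and cutadapt on the reads, STAR with the mm10 build and Partek for the gene counts. Versions are not given in the sources used here. The deposited values, used here as a signal per gene, are the counts that the authors had scaled by TMM, in 1 table per sample. About 80% of low values were whole multiples of a step, too few to recover reads, so no count test was run. As the values are not counts, no counting interval is given. Of the gene symbols, 23 had been turned into dates and were not used as names.

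Tests used limma 3.58.1 in R 4.3.3, two-sided with a mean-variance trend, on log2(value + 17.8), the pseudocount being 1 CPM of the mean column total. Genes needed 0.5 CPM in 2 of 5 libraries, and p-values were adjusted by Benjamini-Hochberg over all of them at 0.05. The difference between sexes was fitted over 11 libraries for genes that passed in both sexes. That replicates are separate mice is assumed from their numbering in the labels, and p-values measure the spread between these libraries. Some members of the lists are not reported here by name. Named genes were the 12 largest rises and falls of at least 5 CPM, members of the clock and early response lists, up to 4 called members of other lists, the Col4a3, Col4a4 and Col4a5 genes and the 5 largest and smallest sex differences. Members and gene lists were chosen with earlier results of these data known. Promoters came from RefSeq on GRCm38.p6 and gene coordinates from GENCODE on GRCm38. The alternatives are given in the closing section. Python 3.11.15 with numpy 2.4.6 served for tables and matplotlib 3.10.9 for plots.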

Additional observations from a re-analysis of the deposited data

Results flagged for a closer look

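The AS effect differed between females and males for 72 of the 131 genes named in these results that could be tested. The threshold was an adjusted p under 0.05 of the difference in limma over 11 libraries. Of all 15655 genes tested, 3605 (23%) passed. The named genes were partly chosen for large female effects or large differences between sexes, so their higher share is a description. Mif-ps and Igfbp2, among the 72, had entered the female test only through the AS libraries. Values are log2 fold changes of females minus those of males, so a positive value means a higher AS over WT ratio in females, and 50 of the 72 were positive. All 72 kept their sign without WT replicate 1 of the females, but 1 of them passed there, and 2 of all genes did. Females were heterozygous and males lacked Col4a5, and their tables may have been scaled apart. Run and genotype cannot be told apart in the females. Groups of 2 or 3 libraries were too small for a test of single libraries that stand apart.

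Clock genes and genes tied to them had differences of Npas2 1.93, Nfil3 1.74, Bhlhe40 1.47, Arntl 1.09, Clock -0.53, Sfpq -0.66, Nr1d2 -0.92, Cry2 -0.99, Per3 -1.05, Tef -1.14, Per2 -1.54, Bhlhe41 -1.88, Per1 -2.45 and Tsc22d3 -2.45. Of these, Bhlhe40 and Clock hardly changed in females (-0.04 and -0.07), and their log2 fold changes in males were -1.51 and 0.46. Early response and related genes had Fosb 3.38, Fos 3.30, Egr1 3.05, Junb 2.92, Atf3 2.75, Zfp36 2.61, Ier2 2.53, Btg2 2.35, Egr2 2.26, Socs3 2.25, Ppp1r15a 1.86, Cebpd 1.83, Dusp1 1.76, Jun 1.65, Ier3 1.47, Socs1 1.46, Ccn1 1.196, Gadd45g 0.99, Jund 0.83 and Ccn2 -2.36. Genes of the distal nephron, or called beside them, had Trpm6 3.28, Calb1 3.23, Sfrp1 2.93, Pvalb 2.82, Sall3 2.78, Slc12a3 2.61, Aqp4 2.32, Kcnj1 2.31, Klhl3 2.17, Prox1 2.05 and Umod 1.96. The male log2 fold change of each of these was below 0, from -3.87 for Aqp4 to -0.35 for Umod, and these male estimates enter each difference. Not all of them passed in limma. In males Trpm6 passed (adjusted p = 0.0233). Umod (adjusted p = 0.438), Pvalb (0.331), Slc12a3 (0.254), Prox1 (0.222) and Sall3 (0.134) did not. Calb1 had 1.64 in females and -1.59 in males, and Aqp4 fell in females too, at -1.55. The male median of the 22 loop, distal and collecting duct markers was -1.69. For Fos the female effect was 1.90 and the male effect -1.40, and for Per1 they were -1.10 and 1.36, so that the sexes had opposite signs for these 2 genes. For Npas2 they were 2.39 and 0.45, with the same sign in each sex.

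Of glomerular genes, the differences were Col4a3 -0.96, Itga8 -1.38, Kdr -1.41 and Ehd3 -1.59. The other genes named were Gm2115 3.27, Defb1 2.91, Ank2 2.56, Ren1 2.15, Gm14760 1.92, Tfrc 1.65, Errfi1 1.51, Snhg1 1.31, Cyp4b1 1.06, Ezh2 1.05, Mif-ps 0.91, Corin 0.90, Loxl1 -1.19, Lingo2 -1.35, Ltbp4 -1.39 and Ccnd2 -1.57.

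The 5 largest and 5 smallest differences among genes of at least 5 CPM in any group included Cyp2d9 3.70, Acsm3 3.62, Igfbp1 3.57, Kap 3.57, Svep1 -2.44, Cacna1s -2.61 and Igfbp2 -3.11. For Cyp2d9 the female log2 fold change was 0.08 and the male one -3.62. Cyp2d9 read 5.45 to 25.1 in females, near the pseudocount, where changes are understated, and 400 to 958 in male WT. Acsm3 (20.4 to 75.6 against 2336 to 3647) and Kap (1215 to 4297 against 84952 to 152109) were also far lower in females. Igfbp1 overlapped (88.6 to 239 against 98.2 to 405). The male median of the proximal tubule markers was -1.97. How far baseline or tubule content set these differences was not tested.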

How the results depend on the processing

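The 226 calls, 170 higher and 56 lower, depended on the settings. Without a filter on low values 8 genes passed, 5 higher and 3 lower, with 5 clock and 1 early response members. With a filter of 2 CPM 148 passed, 106 of them higher. With quantile normalization 108 were higher. With equal column totals 669 passed, 620 of them higher. With the mean proximal tubule level as a covariate 2379 passed, 1238 higher and 1141 lower, with 23 early response members. With the repeated WT table kept as a replicate 2537 passed, 1337 higher and 1200 lower, with 26 early response members. Among protein-coding genes alone, an alternative chosen after seeing the data, 52 passed, 39 higher and 13 lower, with 6 early response members. With the thresholds of the study's methods 1387 passed, 1043 higher and 344 lower, with 27 early response members. Leaving out each library in turn gave 5 to 1831 calls, 3 to 1015 higher and 2 to 816 lower, with 3 to 16 clock and 1 to 17 early response members.

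Whether the replicate numbers pair the libraries could not be decided. Deviations of same-numbered libraries correlated at 0.252 and -0.0442. With 2 WT libraries the WT deviations mirror each other, and only 2 numbers are shared. With the replicate block 936 genes passed, 687 higher and 249 lower, with 30 early response members, and Col4a5 had -0.74. Col4a5 passed there and also with the repeated library (-0.76), with the covariate (-0.74) and with the study's thresholds (-0.695), and its range without single libraries was -0.90 to -0.49. The difference between sexes passed for 2017 genes without a filter and for 2 to 4846 without single libraries. The other settings were pseudocounts of 0.25 and 4 CPM, a filter in 3 tables, median-of-ratios scaling and both sexes in 1 fit. Over 198 single genes and all settings, 3153 of 3733 values kept their side of the threshold, 160 came to pass and 420 no longer passed, and no called gene changed direction. The cause of these changes was not tested.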

Other observations

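Some genes on no list also moved, and are given here as values chosen after they were seen. Tfrc, the transferrin receptor, read 884 and 1025 in WT against 2748, 1874 and 2376 in AS, with a log2 fold change of 1.26 (adjusted p = 0.0317) in limma. Ezh2, the histone methyltransferase of the Polycomb complex, read 33.2 and 35.0 in WT against 90.9, 77.2 and 77.2 in AS, with 0.94 (adjusted p = 0.0429). Adm, the vasodilator peptide adrenomedullin, read 389.6 and 396 in WT against 661, 725 and 736 in AS, with 0.82 (adjusted p = 0.0317). Foxs1, a forkhead factor of perivascular cells, read 24.2 and 31.6 in WT against 130.1, 146 and 132 in AS, with 1.76 (adjusted p = 0.0148). In all 4 genes every AS library was above both WT libraries.

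Among genes that fell, Ccnd2, a D-type cyclin of the cell cycle, read 2665 and 2051 in WT against 1241, 1264 and 1339 in AS, with a log2 fold change of -0.86 (adjusted p = 0.0419). Ltbp4, which binds latent TGF-beta in the matrix, read 5593 and 4663 in WT against 2472, 2817 and 2886 in AS, with -0.91 (adjusted p = 0.0391). Xdh, the xanthine dehydrogenase of purine breakdown, read 970.5 and 979.7 in WT against 552, 426 and 429 in AS, with -1.04 (adjusted p = 0.0317). Pgr, the progesterone receptor, read 82.6 and 85.9 in WT against 39.2, 39.0 and 36.7 in AS, with -0.86 (adjusted p = 0.0446), and Corin, the protease that activates natriuretic peptide precursors, read 32.2 and 32.8 in WT against 9.18, 9.08 and 9.66 in AS, with -0.89 (adjusted p = 0.0429). Their groups did not overlap, and the AS libraries of Pgr and Corin were within a narrow range of each other.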
